A study of Mus musculus with 10 samples.

Results

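Wnt ligands and R-spondins are secreted proteins through which fibroblasts and their neighbours set the activity of Wnt signalling. A set of 10 of their genes, 7 Wnt genes (Wnt2, Wnt4, Wnt5a, Wnt5b, Wnt6, Wnt10a and Wnt10b) and 3 R-spondin genes (Rspo1, Rspo2 and Rspo3), was examined in clones of 3T3-L1, a mouse preadipocyte line. Each gene was taken from probe sets annotated to its symbol alone, with the probe set of highest mean over all 10 arrays kept and no filter on intensity. All 10 genes had such a probe set, out of 19937 genes on the array with one, and Wnt4 had 2. 3T3-L1 is an established embryonic fibroblast line that turns into fat cells when given insulin, dexamethasone and IBMX. Of the lines, 5 were High lines, which stored much triglyceride after that cocktail (3F4 as replicate 1, 4D2 as 2, 4E3 as 3, 5C4 as 4 and 5D4 as 5). The 5 lines set against them were Low lines, which stored little (1E7 as replicate 1, 2D7 as 2, 2F1 as 3, 4D11 as 4 and 4H4 as 5). Every line was grown from a single colony, was kept below confluence in serum-containing medium, had received no cocktail when its RNA was taken, and gave 1 array. A class thus stands for 5 clones of 1 parental line, with no second culture of any clone.

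A Wnt protein is acylated by the enzyme Porcn, carried to the cell surface by Wls, and bound by Frizzled receptors. Together with the co-receptors Lrp5 and Lrp6 this stabilises beta-catenin (the canonical branch), while other ligands act through Ror and Ryk receptors without beta-catenin. R-spondins are not Wnt proteins: they bind Lgr4, Lgr5 or Lgr6 and keep the ubiquitin ligases Rnf43 and Znrf3 from removing Frizzled receptors. Canonical Wnt signalling, with Wnt10b as its best known ligand in this cell line, is known to hold preadipocytes back from becoming fat cells, and Wnt5a is the usual example of a ligand of the other branch.

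Signals are log2 intensities normalized by RMA, so a step of 1 is a doubling of intensity. The arrays were alike, with median log2 intensities between 7.74 and 7.84, and each correlated with the rest at a mean of 0.987 to 0.993, lowest for High replicate 4. That array also departed most from the others along brightness, with its dimmer genes raised (correlation of its deviations with gene brightness -0.36, against -0.10 to 0.24 in the other lines). All 8 fibroblast and preadipocyte markers were bright, with means between 10.65 and 14.09. The lists of other cell types contained 0 of 5 endothelial, 3 of 5 leukocyte, 4 of 6 epithelial, 3 of 5 skeletal muscle, 1 of 5 bone and cartilage and 3 of 6 adipocyte genes above the background defined next. The adipocyte list averaged 6.71 to 7.06 across High lines and 6.66 to 6.78 across Low lines, and any part of it in the results below was not tested. Of its 6 genes, 5 had a higher and 1 a lower mean in High lines. Cd36 alone had an unadjusted p under 0.05 in limma (0.00527, adjusted 0.443). It measured 6.34 ± 0.89 in High and 5.22 ± 0.10 in Low lines (SD, n = 5 each), and its classes did not overlap. The gap was small, from 5.37 in Low replicate 2 to 5.39 in High replicate 5. Only High replicate 3, at 7.65, exceeded the 95th percentile of that background, 7.23, and Cd36 lay within the background in the other lines.

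The first question was which ligands the proliferating cells make. Olfactory receptor genes, which fibroblasts are known to leave largely silent, served as the background: 1027 of them had a median signal of 5.54 and a 95th percentile of 7.23. The means of 8 of the 10 genes lay above that percentile, and Rspo2 and Rspo3 lay below it. Only Wnt5a, Wnt4, Wnt10a and Wnt5b exceeded the 99th percentile, which was 8.03. Probes differ in how brightly they bind, so the marks place each signal on the array and do not rank the amounts of the transcripts.

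**Figure D1:**
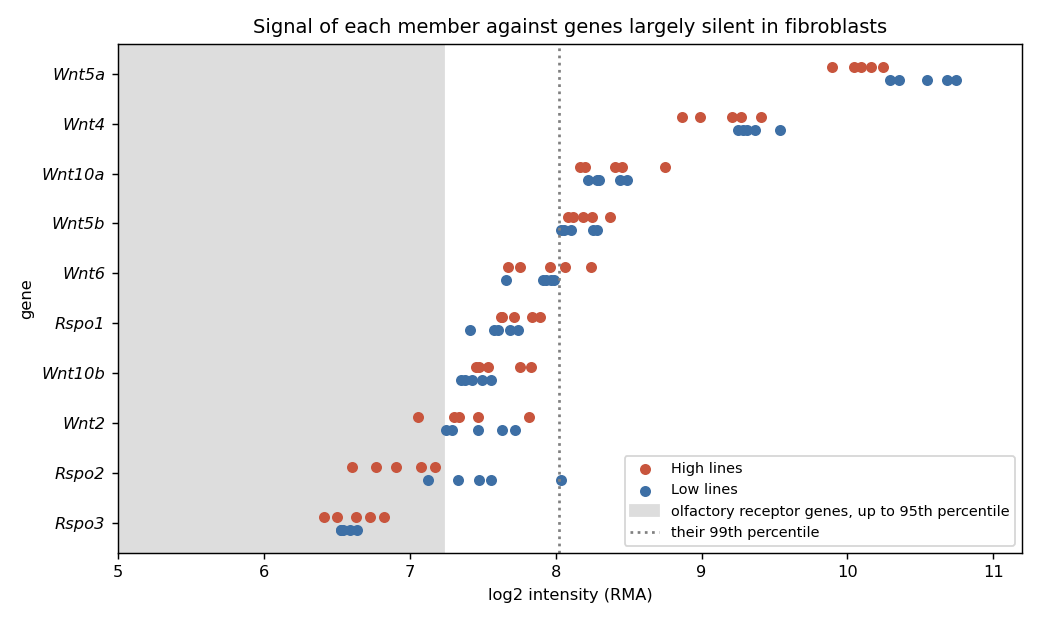
Signal of each of the 10 genes in each line on the horizontal axis (log2 intensity), with High lines in red above Low lines in blue and genes ordered by their mean. The grey area holds olfactory receptor genes up to their 95th percentile (7.23) and the dotted line is their 99th percentile (8.03); Wnt5a, Wnt4, Wnt10a and Wnt5b lie to the right of both in all lines, and Rspo3 lies inside the grey area in all lines.

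Wnt5a was clear of the background in every line, with a mean at percentile 78.0 of all probe sets and above all 1027 olfactory receptor genes. Wnt4, a ligand known from kidney and reproductive tract development, had its mean at percentile 67.2. Wnt10a and Wnt5b stood at percentiles 58.1 and 55.8, and Wnt6 at 52.3. Rspo1, Wnt10b and Wnt2 lay below the middle of the array, at percentiles 48.3, 45.7 and 43.9. Rspo2 was at percentile 39.4 and Rspo3 at 27.8. In all 10 lines Wnt5a, Wnt4, Wnt10a and Wnt5b exceeded the 99th percentile of the olfactory receptor genes, and in all 10 lines Rspo3 stayed below their 95th. Some markers of other cell types exceeded the 95th percentile too, so the signals of Wnt6, Rspo1, Wnt10b and Wnt2, with means between both percentiles, are not clearly told from background. Of those markers, Des, Col2a1, Cd68 and Krt8 exceeded the 99th percentile as well, with means of 8.89, 8.89, 8.85 and 8.26. Whether any of these markers is silent in these lines was not tested. Without that, Wnt10a and Wnt5b, with means of 8.37 and 8.18, are not clearly told from background either. The brightest olfactory receptor gene, at 9.57, exceeded the mean of Wnt4, which was 9.25.

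The array measured 19 Wnt and 4 R-spondin genes in all. Among the other 13, 7 had a mean above the 95th percentile of olfactory receptor genes and 1, Wnt9a, above the 99th. Wnt9a measured 8.38 ± 0.16 in High and 8.32 ± 0.14 in Low lines (SD, n = 5 each), and Wnt9b 7.97 ± 0.15 in High and 7.92 ± 0.10 in Low lines. The textbook canonical ligands Wnt1 and Wnt3a had mean signals of 6.88 and 7.61 over the 10 lines. None of these 13 genes had an unadjusted p under 0.05 between High and Low lines in limma.

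The second question was which of the 10 genes differed between High and Low lines. By limma with Benjamini-Hochberg adjustment over all 19937 genes, 0 of the 10 passed an adjusted p of 0.05, and 1 gene of the whole array did (0.00502%). At an unadjusted p under 0.05, 2 of the 10 genes were lower in High lines (Wnt5a and Rspo2) and 0 were higher. Over all genes 7.21% reached that mark, 4.2% lower and 3.01% higher in High lines. With 10 genes the count rests on those 2. The difference was below 0 for 4 of the 10 genes, against 40.3% of all genes, and above 0 for 6, with a median of 0.048 over the 10, against 0.023 over all genes.

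**Figure D2:**
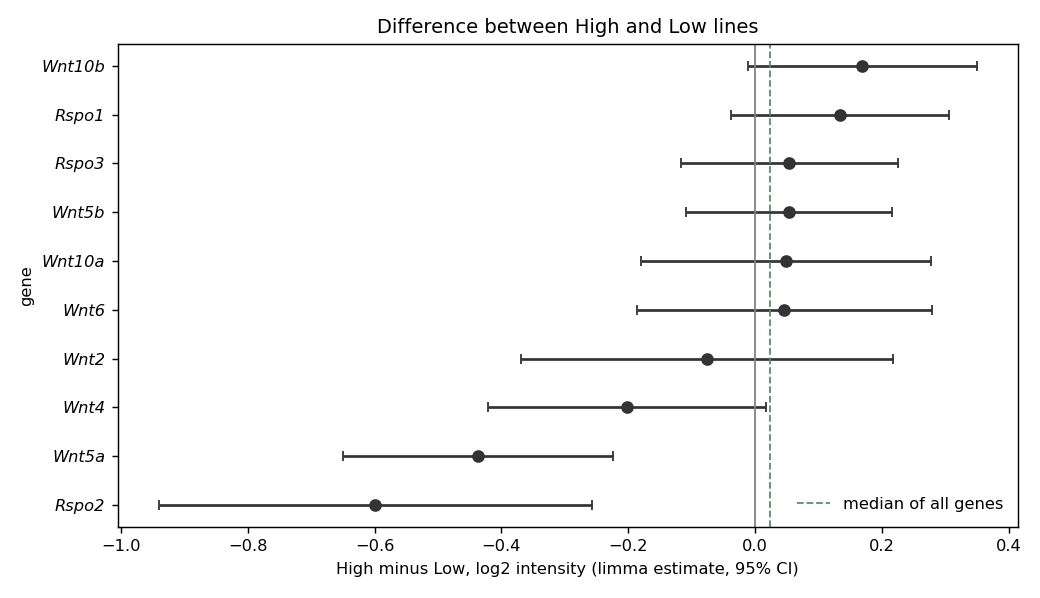
High minus Low difference in log2 intensity for each gene, with the limma estimate as a point and its 95% confidence interval as a bar; the dashed line is the median over all genes (0.023). The intervals of Wnt5a and Rspo2 lie wholly below 0, and those of the other 8 genes include 0; the intervals are not adjusted for the number of genes tested.

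Wnt5a encodes the ligand best known for signalling through Ror receptors. Its signal (Entrez gene 22418, probe set 10413482, chromosome 14) was 10.09, 9.90, 10.04, 10.25 and 10.16 in High replicates 1 to 5, and 10.75, 10.36, 10.55, 10.68 and 10.29 in Low replicates 1 to 5. All 5 High lines lay below all 5 Low lines, although the gap between the highest High line (replicate 4) and the lowest Low line (replicate 5) was only 0.047. With each array's trend with brightness removed, the classes of Wnt5a overlapped (difference -0.42, limma unadjusted p = 0.00163). Over all genes, 1.35% had classes that did not overlap, 0.868% with the High lines lower, and Wnt5a was the 1 gene of the 10. Its means were 10.09 ± 0.13 in High and 10.52 ± 0.20 in Low lines (SD, n = 5 each), a difference of -0.44 (95% confidence interval -0.65 to -0.22), or 0.739 of the Low level. The limma p was 0.000771 unadjusted and 0.316 adjusted over all genes. The two-sided exact permutation p over the 252 splits of 5 and 5 lines was 0.00794, the smallest that these splits allow. Fewer cells making a transcript and less transcript in each cell cannot be told apart in RNA from whole cultures.

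Rspo2 encodes an R-spondin, an amplifier of canonical signalling. Its signal (Entrez gene 239405, probe set 10428388, chromosome 15) was 7.17, 6.91, 6.60, 7.08 and 6.77 in High replicates 1 to 5, and 7.55, 8.04, 7.33, 7.47 and 7.12 in Low replicates 1 to 5. The classes overlapped by 1 pair: High replicate 1 was 0.052 above Low replicate 5, and the other 4 High lines were below every Low line. Set against the olfactory receptor genes, 0 of 5 High lines and 4 of 5 Low lines exceeded their 95th percentile, so the High values sit where this array does not tell a transcript from background. The means were 6.91 ± 0.23 in High and 7.50 ± 0.34 in Low lines (SD, n = 5 each), a difference of -0.60 on the measured log2 scale (95% confidence interval -0.94 to -0.26). The Low mean was 1.21-fold the background's 95th percentile, which no High line exceeded. It lay below the 99th percentile of 8.03, which only 1 line, Low replicate 2, exceeded. The Low values are thus not clearly told from background either, and no fold between the classes is given. The limma p was 0.00242 unadjusted and 0.347 adjusted, with an exact permutation p of 0.0159. Low replicate 2 was the brightest line, and without it the difference was -0.47 (limma unadjusted p = 0.00318).

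**Figure D3:**
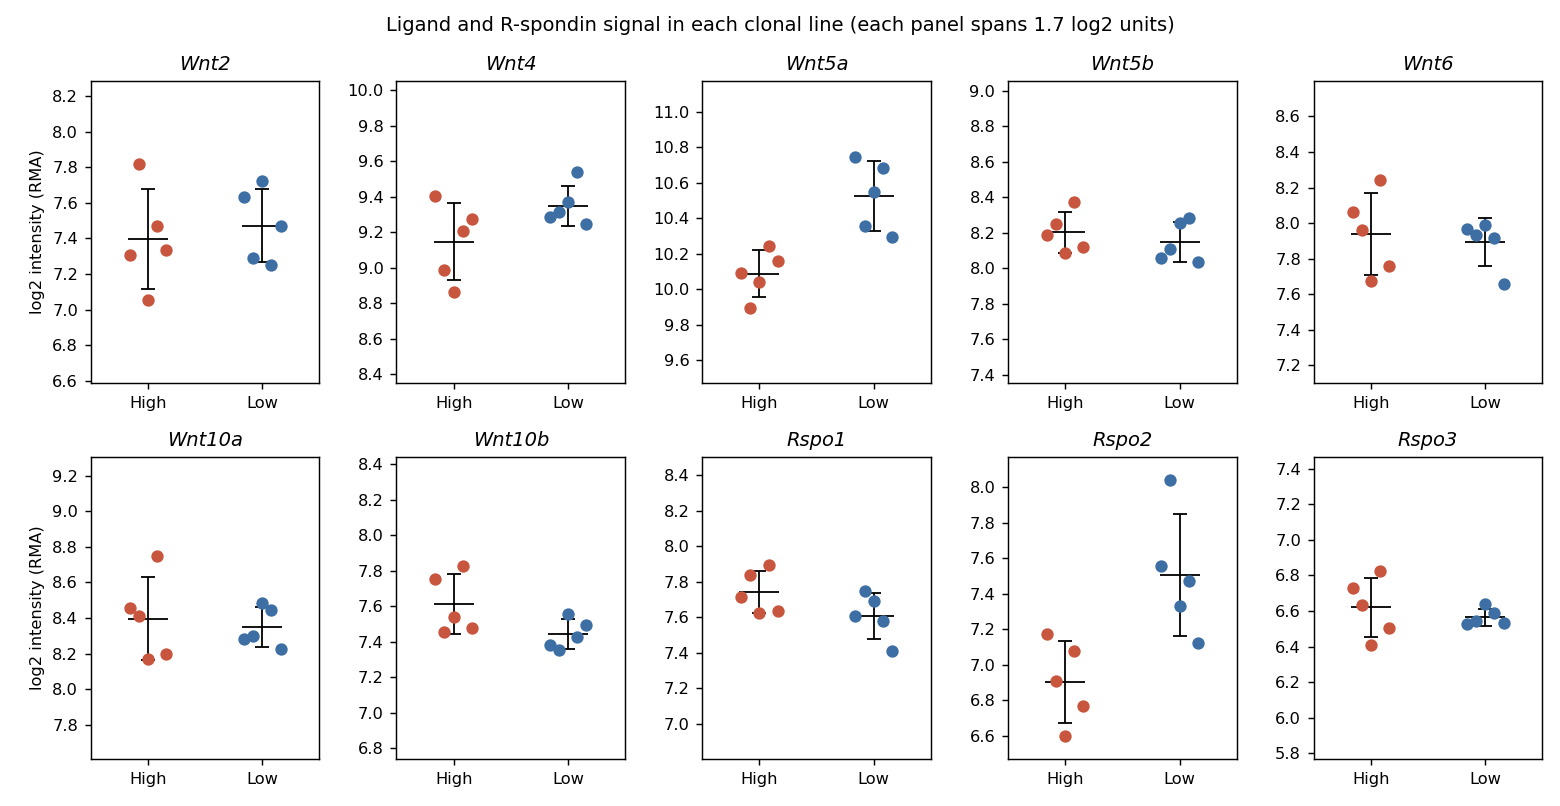
Log2 intensity of each gene in each line, High lines in red on the left and Low lines in blue on the right of a panel, with points from left to right for replicates 1 to 5 and black bars for the mean and SD. Every panel spans the same 1.7 log2 units. The classes are apart for Wnt5a, nearly apart for Rspo2, and overlap for the other 8 genes.

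Wnt4 was the next gene with a lower mean in High lines. Its brighter probe set (Entrez gene 22417, probe set 10509267, chromosome 4) gave 9.41, 8.99, 8.86, 9.21 and 9.27 in High replicates 1 to 5, and 9.28, 9.31, 9.37, 9.54 and 9.25 in Low replicates 1 to 5. High replicates 2, 3 and 4 lay below all Low lines, and High replicates 1 and 5 lay among them. The difference of -0.20 (95% confidence interval -0.42 to 0.02) had a limma p of 0.068 unadjusted and 0.719 adjusted. The second Wnt4 probe set, 10509273, measured 8.76 ± 0.12 in High and 8.94 ± 0.29 in Low lines (SD, n = 5 each), a difference of -0.17 (limma unadjusted p = 0.192). Both probe sets thus had the lower mean in High lines, without passing the test. Without High replicate 3, the lowest line, the difference of the brighter one was -0.13 (limma unadjusted p = 0.179).

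Wnt10b, the ligand known to hold 3T3-L1 cells back from differentiation, had the opposite sign. Its signal (Entrez gene 22410, probe set 10432267, chromosome 15) was 7.76, 7.46, 7.54, 7.83 and 7.48 in High replicates 1 to 5, and 7.38, 7.35, 7.56, 7.43 and 7.49 in Low replicates 1 to 5. High replicates 1 and 4 were above all Low lines, and the other High lines fell within the Low range. The difference was 0.17 (95% confidence interval -0.01 to 0.35; limma p 0.0641 unadjusted and 0.715 adjusted). Without High replicate 4, the line whose dim genes were raised, it was 0.11 (limma unadjusted p = 0.152). Without High replicate 1 it was 0.13 (limma unadjusted p = 0.152). With each array's trend with brightness removed, it was 0.14 (limma unadjusted p = 0.0604).

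Rspo1, known for its part in ovary development, averaged 7.74 ± 0.12 in High and 7.61 ± 0.13 in Low lines (SD, n = 5 each), a difference of 0.13 (95% confidence interval -0.04 to 0.31, limma adjusted p = 0.773) that was 0.086 without Low replicate 5. Wnt2, a canonical ligand known from lung development, averaged 7.40 ± 0.28 in High and 7.47 ± 0.21 in Low lines, with a difference of -0.08 (interval -0.37 to 0.22). These intervals leave room for differences in either direction. Wnt5b, the closest relative of Wnt5a, averaged 8.20 ± 0.11 in High and 8.15 ± 0.11 in Low lines. Its difference of 0.05 had an interval of -0.11 to 0.22, which does not reach the -0.44 of Wnt5a. Wnt5b is not clearly told from background, so this does not show that its transcript differs less.

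Wnt6 and Wnt10a, canonical ligands known to act on preadipocytes as Wnt10b does, lie next to each other on chromosome 1. Wnt6 averaged 7.94 ± 0.23 in High and 7.89 ± 0.13 in Low lines, and Wnt10a 8.40 ± 0.23 in High and 8.35 ± 0.11 in Low lines (SD, n = 5 each). Both differences were 0.05, and with the values of neighbouring genes subtracted they were -0.03 for Wnt6 and -0.03 for Wnt10a, so neither had a settled sign. Rspo3, an R-spondin known from blood vessel development, averaged 6.62 ± 0.17 in High and 6.57 ± 0.05 in Low lines, a difference of 0.05 (limma adjusted p = 0.882) between values that both lie within the background.

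RefSeq (GRCm38.p6) promoter sequence was at hand for 6 of the 10 genes, Wnt2, Wnt4, Wnt5b, Wnt6, Wnt10b and Rspo1. Wnt5b had 3 annotated windows and the other 5 genes had 1 each. The 250 bases before the annotated start are shown for the genes with the highest and the lowest share of G and C among those 5, Wnt4 (chr4:137277385-137277634, plus strand) and Wnt2 (chr6:18030446-18030695, minus strand), to show how far the windows differ in base composition. They are written 5′ to 3′, with capitals for the GC box letters GGGCGG or their reverse complement CCGCCC.
Wnt4: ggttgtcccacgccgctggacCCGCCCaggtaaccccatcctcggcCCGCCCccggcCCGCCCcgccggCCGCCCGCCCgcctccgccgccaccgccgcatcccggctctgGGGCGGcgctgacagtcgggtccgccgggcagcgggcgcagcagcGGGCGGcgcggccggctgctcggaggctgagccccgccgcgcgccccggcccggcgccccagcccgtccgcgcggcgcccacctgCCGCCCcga
Wnt2: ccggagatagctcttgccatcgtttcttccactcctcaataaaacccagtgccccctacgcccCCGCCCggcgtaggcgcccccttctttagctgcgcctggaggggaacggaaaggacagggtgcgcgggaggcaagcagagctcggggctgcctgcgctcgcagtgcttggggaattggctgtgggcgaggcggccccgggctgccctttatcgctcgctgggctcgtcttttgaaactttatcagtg

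The Wnt4 window was 85.2% G and C and held 44 CpG pairs, and the Wnt2 window was 63.6% G and C with 20, against medians of 52.4% and 6 over 32851 windows of the same length. GC box letters occurred 8 times in the Wnt4 window and 1 time in the Wnt2 window, counting both strands and overlapping matches, and 32.7% of all windows held at least 1. The TATA box letters TATAAA (in 12.4% of all windows) and the TCF/LEF core letters CTTTGA (in 13.8%), searched on both strands, were in neither. Of the others, the Wnt6 window was 79.6% G and C with 6 GC boxes, and those of Wnt10b and Rspo1 were both 66.8% with 0. These are descriptions of letters and were not set against the signals.

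The 10 genes also differed in how far the lines were apart. Rspo2 spanned 1.44 log2 units over the 10 lines, with an SD of 0.42 that exceeded 98.5% of the 1000 genes nearest to it in mean signal, although 6 of the 10 lines lay below the background's 95th percentile. Wnt2 and Wnt5a followed, with SDs of 0.24 and 0.28 that exceeded 93.5% and 90.9% of their neighbours in signal. For Wnt2 the lines furthest apart, replicates 2 and 3 at 7.82 and 7.05, were both High lines. Wnt5b varied least, over 0.34 log2 units, with an SD above 22.2% of its neighbours in signal. Line by line, High replicate 4, the array with raised dim genes, was the highest of all lines for 6 of the 10 genes. High replicate 3 was the lowest for 5. Such counts were not made over all genes, so they are not read as a trait of the 10.

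Wnt5b, Wnt6, Wnt10a and Rspo3 went up and down together across lines. Pearson's r over the 10 lines ran from 0.75 to 0.94 for their 6 pairs, and from 0.48 to 0.85 after each array's trend with brightness was removed. The pattern was not confined to these 4 genes, since r was 0.77 for Wnt6 with Rspo1 and 0.74 for Wnt10b with Rspo3. Nor was it confined to the 10. Axin2, a gene outside them with a mean of 7.67, had r of 0.61 with Wnt5b, 0.79 with Wnt6, 0.70 with Wnt10a and 0.78 with Rspo3. Rspo3 lay within the background in all 10 lines. High replicate 4 was the brightest line for all 4, so the array with raised dim genes moves with this pattern, and its part in it was measured only through the trend. Wnt5a and Rspo2 had an r of 0.65 over the 10 lines and 0.08 once the class means were subtracted. Correlations are given as descriptions, without tests, since the lines share their arrays' normalization and their parental line.

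Pparg, the transcription factor that drives fat cell differentiation, measured 12.02 ± 0.19 in High and 11.41 ± 0.21 in Low lines (SD, n = 5 each; limma adjusted p = 0.28). With class means subtracted, its r over the 10 lines was -0.37 with Wnt5a and -0.61 with Rspo2.

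**Figure D4:**
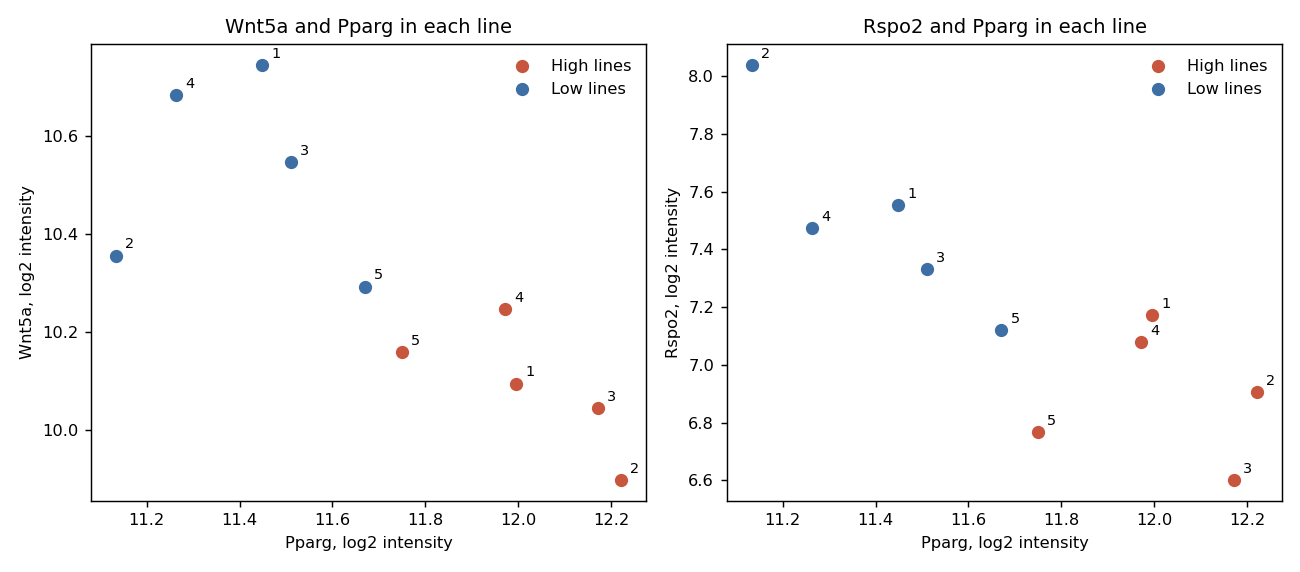
Wnt5a (left) and Rspo2 (right) against Pparg in each line, all in log2 intensity, with High lines in red, Low lines in blue and replicate numbers beside the points. High lines lie at higher Pparg and lower Wnt5a than all Low lines, while High replicate 1 lies above Low replicate 5 for Rspo2.

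The genes whose pattern over the 10 lines was most like that of Wnt5a, among 15249 genes with a name other than a provisional one and a signal above the 25th percentile of the array in at least 5 lines, were Igf1r (the receptor of insulin-like growth factor), Setd3 (an actin methyltransferase) and Evl (an actin regulator), with Pearson's r of 0.96, 0.95 and 0.94. After the class means were subtracted, r was 0.92, 0.87 and 0.82. Igf1r measured 10.82 ± 0.10 in High and 11.03 ± 0.13 in Low lines (SD, n = 5 each), a difference of -0.22 (limma adjusted p = 0.533). The most opposite genes were Arpc1a (a subunit of the Arp2/3 actin complex), Smurf1 (a ubiquitin ligase) and Galnt1 (an enzyme of protein glycosylation), with r of -0.94, -0.93 and -0.90. Setd3 and Evl lie on chromosome 12, and Arpc1a and Smurf1 on chromosome 5.

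For Rspo2 the most alike were Dcun1d1 (a factor of cullin neddylation), Snx25 (a sorting nexin) and Zfp809 (a repressor of retroviral elements), with r of 0.92, 0.92 and 0.91, and 0.89, 0.82 and 0.77 after the class means were subtracted. Raph1 (an actin regulator at the cell edge), Dhrs9 (a retinol dehydrogenase) and Prkag3 (a subunit of AMP-activated kinase) were most opposite, with r of -0.89, -0.87 and -0.87. Extreme values are bound to occur among so many genes and 10 lines. None of these 12 genes passed limma's adjusted threshold between the classes, with adjusted p from 0.347 to 0.722.

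Around the ligands, the genes for making, receiving and blocking them were also measured. In each list below, 0 genes passed limma's adjusted p of 0.05, and the counts at an unadjusted p under 0.05 are to be read against 3.01% higher and 4.2% lower over all genes. Of 11 genes for Wnt processing and secretion, 1 was higher and 0 were lower, with a median difference of 0.028. That gene was Trabd2b, which encodes a membrane protease known to cleave and inactivate Wnt proteins. It measured 11.06, 11.24, 11.10, 11.38 and 11.06 in High replicates 1 to 5, and 10.65, 10.93, 10.78, 10.98 and 10.50 in Low replicates 1 to 5. All High lines exceeded all Low lines, by a mean of 0.40 (95% confidence interval 0.18 to 0.62), with a limma p of 0.00177 unadjusted and 0.327 adjusted. Tmed2 and Vps35, the brightest of the list, differed by 0.03 and -0.10.

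Of 12 Frizzled and Lrp receptor genes, 0 reached an unadjusted p of 0.05, and the median difference was 0.071. The brightest, Lrp6 and Fzd2, differed by 0.08 and -0.14. Of 7 receptor genes of the branch without beta-catenin, 0 were higher and 1 lower. It was Ror2, a receptor of Wnt5a, at 8.51 ± 0.25 in High and 9.01 ± 0.37 in Low lines (SD, n = 5 each), a difference of -0.50 (limma p 0.0124 unadjusted, 0.521 adjusted). Low replicate 4, at 8.35, lay within the High range of 8.11 to 8.76, and the other Low lines were at 9.11 to 9.28. The brightest of that list, Ryk and Vangl1, differed by -0.03 and 0.16.

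Of 7 receptors and partners of R-spondins, 0 reached an unadjusted p of 0.05. The brightest, Lgr4 and the proteoglycan gene Sdc4, differed by 0.33 (95% confidence interval -0.01 to 0.68) and 0.07. Of 16 Wnt antagonist genes 1 was higher and 0 were lower, with a median of 0.047. It was Sfrp2, a secreted Frizzled-like protein, which measured 12.21, 12.17, 11.78, 12.24 and 10.45 in High replicates 1 to 5, and 10.67, 11.02, 10.99, 10.62 and 11.48 in Low replicates 1 to 5. Of the High lines 4 were above every Low line, and replicate 5 was below all of them. The difference was 0.81 (95% confidence interval 0.14 to 1.49; limma p 0.0214 unadjusted and 0.582 adjusted).

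Of 14 measured target genes of canonical signalling, 0 were higher and 1 lower, with a median difference of 0.023. It was Lef1, a transcription factor partner of beta-catenin, at 9.50 ± 0.28 in High and 9.84 ± 0.21 in Low lines (SD, n = 5 each; limma p 0.0276 unadjusted and 0.622 adjusted). Its classes overlapped, with High replicate 2 at 9.81 above Low replicate 2 at 9.65. The cell cycle genes Ccnd1 and Myc, the brightest of the list, differed by 0.01 and -0.17.

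Clone names gave the only other split of the lines, by their leading digit, whose meaning is not given in the labels. Names starting with 4 alone occur in both classes, in 2 High and 2 Low lines. Within them the difference was -0.52 for Wnt5a, -0.54 for Rspo2 and -0.47 for Wnt4, near the differences over all lines for Wnt5a and Rspo2. The fit with that digit as a block rests on those 4 lines. In it limma gave unadjusted p of 0.00545 for Wnt4, 0.00823 for Wnt5a and 0.0544 for Rspo2. Rspo2 was thus no longer under 0.05, and 0 of the 10 genes passed an adjusted p of 0.05. For Wnt10b the difference within those lines was 0.04, with a limma unadjusted p of 0.799 in that fit.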

How the data were processed

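Total RNA from 10 clonal lines was hybridised to whole-transcript Affymetrix arrays, 1 array a line, per the labels' protocols. The deposited values are log2 intensities, 1 per probe set and array, which the authors made with RMA, per the submitters' processing notes. RMA's version and settings and any genome build were not given in the sources used here. RMA makes the arrays' distributions alike and so removes any change shared by most genes. Of 34760 probe sets, 21640 carried 1 gene symbol in the platform annotation, 1321 several, and 11799 were unnamed here. The brightest probe set was kept for each of 19937 genes, without an intensity filter.

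The classes were compared in R 4.3.3 by lmFit and eBayes of limma 3.58.1, two-sided, with Benjamini-Hochberg adjustment over all genes; single genes also had an exact permutation test (Python 3.11.15). The fit was tested on simulated data. Lines are separate clones, so the spread holds clonal and technical variation, and 5 lines a class limit the precision. Beside the 10, values were given for genes of a pathway list with an unadjusted limma p under 0.05 and, mostly, its 2 brightest. The 3 most and least correlated genes of Wnt5a and Rspo2 were also named. These came from the 16339 genes above an array's 25th percentile in at least 5 arrays. Predicted, RIKEN, LOC, microRNA and small nucleolar RNA names were left out, leaving 15249. Outside these rules, values were given for Wnt1, Wnt3a, Pparg, Axin2 and the markers Cd36, Des, Col2a1, Cd68 and Krt8. The genes and lists were chosen with earlier results of these data known. Some listed genes, Tcf7, Wisp1, Cfd, Bglap and Tiki1 among them, were not analysed here. Alternatives covered filters, probe sets, scaling, variance models, array weights, clone names, neighbouring genes and the omission of single lines; a correction for brightness was chosen after seeing the data. Protein sequences were not used here.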

Additional observations from a re-analysis of the deposited data

Results flagged for a closer look

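Within classes, 20 sets of 5 values (10 genes in 2 classes) were searched for a line far from the other 4, and 1 such set was found, where about 1 arises by chance. It was Wnt6 in Low lines: Low replicate 5 measured 7.66, while the other 4 Low lines lay between 7.92 and 7.99. Without that line the difference of Wnt6 was -0.01.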

How the results depend on the processing

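Wnt5a was lower in High lines under all 21 alternative fits (difference -0.52 to -0.38; limma unadjusted p 0.000295 to 0.00823), and so was Rspo2 in its 20 (difference -0.69 to -0.47; unadjusted p 0.000748 to 0.0544); neither passed an adjusted p of 0.05 in any of them. With 1 line left out the differences ran from -0.50 to -0.38 for Wnt5a and from -0.69 to -0.47 for Rspo2. With a block for the first digit of clone names, Rspo2 had an unadjusted p of 0.0544, 0 genes of the array passed and 762 reached an unadjusted p under 0.05, against 1438; this fit rests on 4 lines. Its differences for Wnt2, Wnt10a and Rspo3 were 0.077, -0.046 and -0.039, opposite in sign to the reported ones. Neighbouring genes subtracted gave -0.027 for Wnt6 and -0.029 for Wnt10a. With 1 line left out, Wnt2 ran from -0.18 to 0.0099 (without High replicate 3), and Wnt6 from -0.029 and Wnt10a from -0.039 (both without High replicate 4) to 0.11; Wnt6 was also below 0 without Low replicate 5 (-0.012). The cause of these turns was not tested. A filter at the array median left 1 gene of the 10 with an unadjusted p under 0.05, since Rspo2 was removed by it. The classes of 2 genes, Wnt5a and Rspo2, did not overlap after centring of arrays on their medians, without High replicate 1 or without Low replicate 5; with any other line left out, only Wnt5a did not. With the brightness trend removed it was Rspo2 and not Wnt5a. Wnt4 reached an unadjusted p under 0.05 in 4 fits (centred arrays, clone digit, neighbours, without High replicate 1) and Wnt10b in 3 (without High replicate 2, High replicate 5 or Low replicate 3). Without High replicate 3 the difference of Wnt4 was -0.13. Centring on medians changed the split over all genes at an unadjusted p under 0.05 to 406 higher and 1153 lower, against 600 and 838. With 1 line left out, 1 to 18 genes of the array passed, 18 without High replicate 5 and 0 of the 10 among them. Against the 99th percentile of olfactory receptor genes, 4 of the 10 exceeded the background instead of 8. No paired analysis was possible because the labels give no replicate numbers shared between the classes. The number of lines limits these comparisons, as does the signal over background, most for Rspo2 and Rspo3 and also for Wnt2, Wnt6, Wnt10b, Rspo1, Wnt10a and Wnt5b.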
